A study of Mus musculus with 18 samples.

Results

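The comparison described here sets 3 libraries of AE9a cells against 3 libraries of wild-type (WT) cells, all given DMSO, the carrier solvent of the compounds in the study. It uses 6 of the 18 libraries of the series, chosen by their labels alone, and all genes counted in them. The cells were mouse bone marrow cells selected for cKit, the receptor for stem cell factor that marks stem cells, early progenitors and mast cells. AE9a is a splice form of AML1-ETO, the fusion of the transcription factor RUNX1 with RUNX1T1 (also called ETO). The labels give neither the promoter or vector behind AE9a, nor strain, age or sex, nor whether the replicates were separate animals. The other 12 libraries were of the same genotypes under the compounds C16 or RE, in a study of WDR5 and MLL1 inhibition.

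RUNX1 binds DNA through its Runt domain and is needed for the making of platelets, lymphocytes and myeloid cells. AML1-ETO keeps that domain and joins it to a protein that recruits corepressors, and it is known from acute myeloid leukemia, where AE9a is the form that gives leukemia in mice. Cells selected for cKit can include red cell, platelet, granulocyte and mast cell precursors, so genes of each lineage were read as separate lists.

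Library totals ran from 17328023 to 27207748 fragments in the 6 DMSO libraries. Levels below are CPM (fragments of a gene per 1000000 fragments of its library) in replicates 1, 2 and 3 in that order, and differences are log2 fold changes, AE9a over WT, ± standard error, with n = 3 libraries per group. A gene is called higher or lower where the adjusted p of edgeR's quasi-likelihood test was under 0.05. WT replicate 2 did not resemble its group: its root mean square log2 difference was 0.70 from WT replicate 1 and 0.68 from WT replicate 3, which lay 0.25 from each other. AE9a libraries lay 0.25 to 0.28 from each other and 0.84 to 0.96 from WT libraries. Counts were therefore also taken without WT replicate 2 of all treatments. In that fit edgeR's common estimate of spread within groups (a coefficient of variation) was 0.091, against 0.243 with all libraries. The genotypes came as separate tables, so genotype cannot be told apart from batch or preparation. Xist, the RNA of the inactive X chromosome, stood between 1661.1 and 2524.2 CPM in all 6 libraries. The Y-linked Ddx3y, Kdm5d and Uty had 0 fragments in each, and Eif2s3y had 1 fragment, in WT replicate 2.

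Runx1t1 (chromosome 4, 13742628 to 13895056 of GRCm39, as are all positions of genes here), the ETO part of the fusion, stood at 34.5, 46.8 and 38.7 CPM in AE9a cells and at 0.0577, 0.112 and 0.158 CPM in WT cells, as the genotype labels have it. Runx1 (chromosome 16, 92398354 to 92622962) stood at 309, 383 and 350 CPM against 273, 191 and 271 CPM and was called higher by 0.52 ± 0.18 (adjusted p = 0.041). That call held in 2 of 6 fits that each left out a library. Whether the transgene holds mouse or human sequence is not known, so the share of these counts that came from it is not known either. Kit (chromosome 5, 75735647 to 75817382), by which the cells were selected, had 886, 1206 and 1001.4 CPM in AE9a and 128, 60.8 and 134 CPM in WT cells (3.28 ± 0.33, adjusted p = 1e-05). Kit was thus detected in every library, at levels that did not overlap between the genotypes. Nanog, which the study's title names, had 0 fragments in all 6 libraries.

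The test covered 15809 genes, of which AE9a cells had 2047 (12.9%) at a higher and 2178 (13.8%) at a lower level, 26.7% in all. Changes of at least 2-fold were called for 962 genes higher (6.09%) and 1060 lower (6.71%). The 3 AE9a libraries lay wholly above the 3 WT libraries for 21.8% of genes and wholly below for 26.0%, together 47.8%. Without WT replicate 2, 4003 of 16127 genes (24.8%) were higher and 4169 (25.9%) lower. The list counts below are to be read beside these shares of all genes. The median log2 difference of all tested genes was -0.05, and -0.01 without WT replicate 2. None of the 4225 called genes changed sign in any of the 18 other fits that tested it. The largest changes ran unequally in the 2 directions: 49 genes had 0 fragments in WT and at least 50 in AE9a libraries, and 3 genes the reverse.

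**Figure D1:**
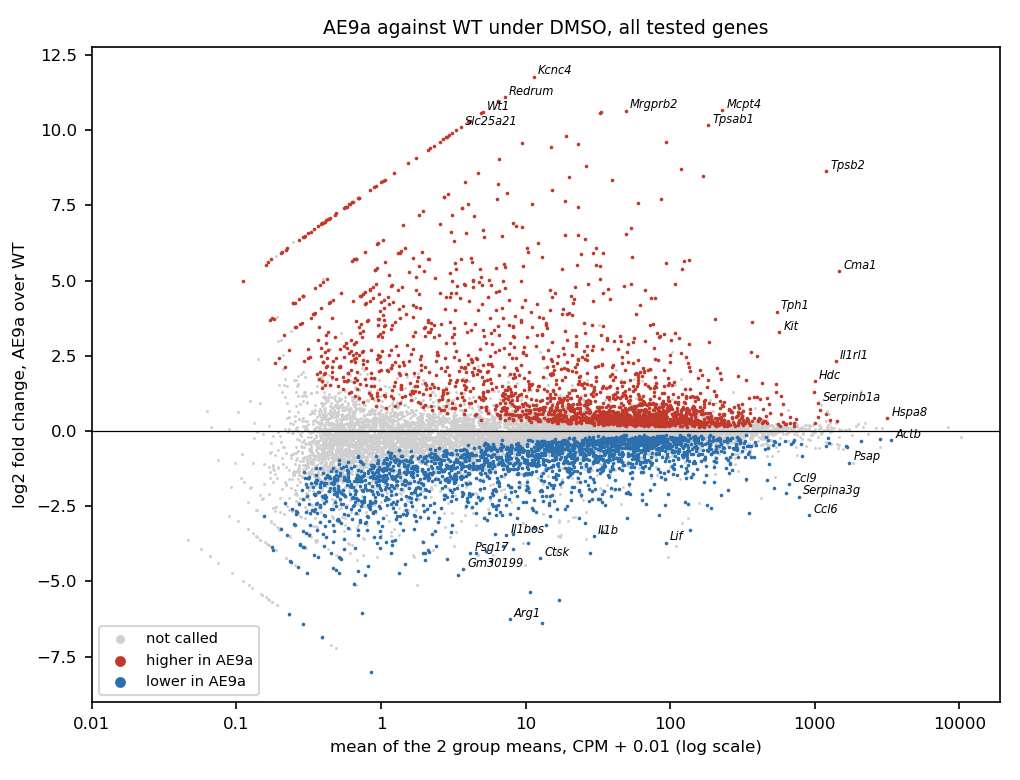
Log2 fold change of AE9a over WT cells under DMSO (vertical) against the mean of the 2 group means in CPM + 0.01 (horizontal, log scale) for all 15809 tested genes, with genes called higher in red and lower in blue. Mast cell genes such as Mcpt4, Tpsb2 and Cma1 lie at the upper right, and names are shown for those of the largest changes that do not crowd each other.

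Mast cell genes gave the widest separation among abundant transcripts. Of 23 mast cell genes tested, 16 were higher and 1, Mcpt8, lower, with a median of 2.32, and the counts were 16 and 2 without WT replicate 2. Mast cells are tissue cells that store histamine, heparin and proteases in granules. In the mouse, Mcpt4, Cma1 and Tpsb2 are proteases of the connective tissue type of mast cell, Mcpt1 and Mcpt2 of the mucosal type, and Mcpt8 of basophils. Mrgprb2 is the receptor by which basic peptides degranulate mast cells. In bulk samples, more cells of a type and more RNA per cell cannot be told apart.

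Promoters of 9 mast cell genes called higher, with and without the letters searched for, are shown here. Each line gives 150 bases up to the base before the transcript start, 5′ to 3′ on the gene's strand, from RefSeq on GRCm38.p6, a build other than that of the counts. Capitals mark TGTGGT, the core letters bound by RUNX proteins, or AGATAA, letters bound by GATA factors, on either strand (the other strand reads ACCACA or TTATCT).
Mcpt4 (chr14:56062311-56062460, minus strand): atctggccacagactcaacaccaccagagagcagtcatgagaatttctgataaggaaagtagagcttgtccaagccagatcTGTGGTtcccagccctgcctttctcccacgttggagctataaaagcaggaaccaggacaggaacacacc
Mcpt1 (chr14:56017814-56017963, plus strand): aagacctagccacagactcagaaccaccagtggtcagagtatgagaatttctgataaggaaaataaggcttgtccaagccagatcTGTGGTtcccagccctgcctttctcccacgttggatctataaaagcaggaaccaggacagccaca
Mrgprb2 (chr7:48558087-48558236, minus strand): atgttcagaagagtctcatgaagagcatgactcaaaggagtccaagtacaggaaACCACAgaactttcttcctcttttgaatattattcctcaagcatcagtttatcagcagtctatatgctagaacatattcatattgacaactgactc
Tph1 (chr7:46672538-46672687, minus strand): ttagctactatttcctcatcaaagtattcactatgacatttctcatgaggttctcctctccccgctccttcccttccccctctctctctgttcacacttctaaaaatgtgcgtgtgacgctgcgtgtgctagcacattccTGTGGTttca
Fcer1a (chr1:173227230-173227379, minus strand): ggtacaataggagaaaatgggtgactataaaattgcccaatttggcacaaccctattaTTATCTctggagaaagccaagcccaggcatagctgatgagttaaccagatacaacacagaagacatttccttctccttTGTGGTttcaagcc
Ms4a2 (chr19:11623720-11623869, minus strand): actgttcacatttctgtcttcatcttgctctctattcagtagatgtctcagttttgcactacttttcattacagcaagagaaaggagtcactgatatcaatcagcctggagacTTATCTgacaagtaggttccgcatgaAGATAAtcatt
Cma1 (chr14:55944676-55944825, minus strand): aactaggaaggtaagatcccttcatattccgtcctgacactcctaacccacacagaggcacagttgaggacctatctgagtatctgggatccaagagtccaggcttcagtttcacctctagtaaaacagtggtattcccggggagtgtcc
Hdc (chr2:126618679-126618828, minus strand): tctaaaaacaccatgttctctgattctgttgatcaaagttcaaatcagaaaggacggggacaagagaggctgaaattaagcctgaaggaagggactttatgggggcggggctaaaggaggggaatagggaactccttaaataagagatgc
Mrgprb1 (chr7:48456343-48456492, minus strand): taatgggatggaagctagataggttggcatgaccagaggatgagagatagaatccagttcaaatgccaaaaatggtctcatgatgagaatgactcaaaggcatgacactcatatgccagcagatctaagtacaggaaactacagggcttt
Of the 16 mast cell genes called higher, 13 had a promoter in the table. In the 250 bases before the start, counting a gene if any of its starts qualified, 7 of these 13 held TGTGGT and 4 held AGATAA. Those with AGATAA included Fcer1a and Ms4a2, whose calls were lost in most fits that left out a library, as given below. Over the 11783 tested genes with a promoter, 14.1% held TGTGGT and 7.88% AGATAA. Among genes at least 2-fold higher the shares were 16.1% and 12.6%, and among genes at least 2-fold lower 17.9% and 10.5%. Mcpt4 and Mcpt1, which lie in the same gene cluster, share a run of 53 bases that holds the TGTGGT. In the 150 bases before the start, 9 of the 18 starts of these 13 genes held either set of letters and 9 held neither. Of the 13 genes, 4 (Cma1, Hdc, Kit and Mrgprb1) held neither at any start, and Tph1, Mitf and Il1rl1 each had a start with and a start without. Only these exact letters were searched for, so other forms that RUNX or GATA factors may bind were not counted. These matches describe letters only, and whether AE9a binds these promoters was not tested. The mast cell list was chosen with earlier results known, and its genes that were not called were not counted for comparison.

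Mcpt4 (chromosome 14, 56297201 to 56299767) stood at 441, 513 and 424 CPM in AE9a cells and at 0.231, 0.0562 and 0.528 CPM in WT cells. Its difference was 10.68 ± 1.16 (adjusted p = 1.7e-05). The call of Mcpt4 held in 6 of 6 fits that each left out a library, but not in every other alternative fit. Cma1 stood at 2417.5, 3682.5 and 2535.7 CPM against 89.4, 8.71 and 123 CPM (5.32 ± 1.31, adjusted p = 0.0078). WT cells thus held Cma1 transcripts at a level that varied by library, lowest in replicate 2, whereas Mcpt4 stood under 1 CPM in each. Tpsb2 and Tpsab1, the tryptase genes (chromosome 17, 25562219 to 25587070), are close copies that can share reads, so their sum is the safer value. It was 2220.9, 3207.2 and 2846.6 CPM in AE9a and 5.42, 4.83 and 8.82 CPM in WT cells. Mcpt2 had 30.9, 35 and 24.4 CPM against 0.173, 0 and 0.158 CPM. Mrgprb2 had 78.5, 124 and 91.8 CPM against 0.115, 0 and 0.0528 CPM (10.65 ± 1.11, adjusted p = 1.3e-05). Its relatives Mrgprb1 and Mrgprx2 rose alongside, with the reservation that these genes are similar in sequence.

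Genes of mast cell signalling and amine storage differed less, and WT cells expressed them. Tph1, the enzyme that starts serotonin synthesis, had 806, 1150.2 and 1113.9 CPM against 83.5, 22.5 and 93 CPM (3.97 ± 0.93). Il1rl1, the IL-33 receptor, had 2005.5, 2663.4 and 2269.4 CPM against 552, 246 and 617 CPM (2.32 ± 0.63, adjusted p = 0.013). Hdc, which makes histamine, had 1438, 1713.4 and 1374.5 CPM against 557, 275 and 623 CPM (1.66 ± 0.41). The transcription factor gene Mitf had 70.5, 91.3 and 80 CPM against 24.2, 26.1 and 25.2 CPM (1.70 ± 0.18, adjusted p = 1.3e-05). Fcer1a and Ms4a2, subunits of the IgE receptor, were called higher by 1.88 ± 0.63 and 1.15 ± 0.37, calls that held in 0 and 1 of 6 fits that each left out a library. Cpa3, the carboxypeptidase of early and mature mast cells, showed 1.33 ± 0.57 and was not called (adjusted p = 0.1), although its libraries did not overlap. Srgn, Gata2, Hpgds and Slc18a2 were not called either, with log2 differences of 0.07 to 0.53. Slc45a3, which was named for its change of 588, 807 and 639 CPM against 69.3, 25.6 and 74.6 CPM, and Hapln1 (62.2, 80.4 and 58.1 CPM against 0, 0 and 0.106 CPM) were outside the list.

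**Figure D2:**
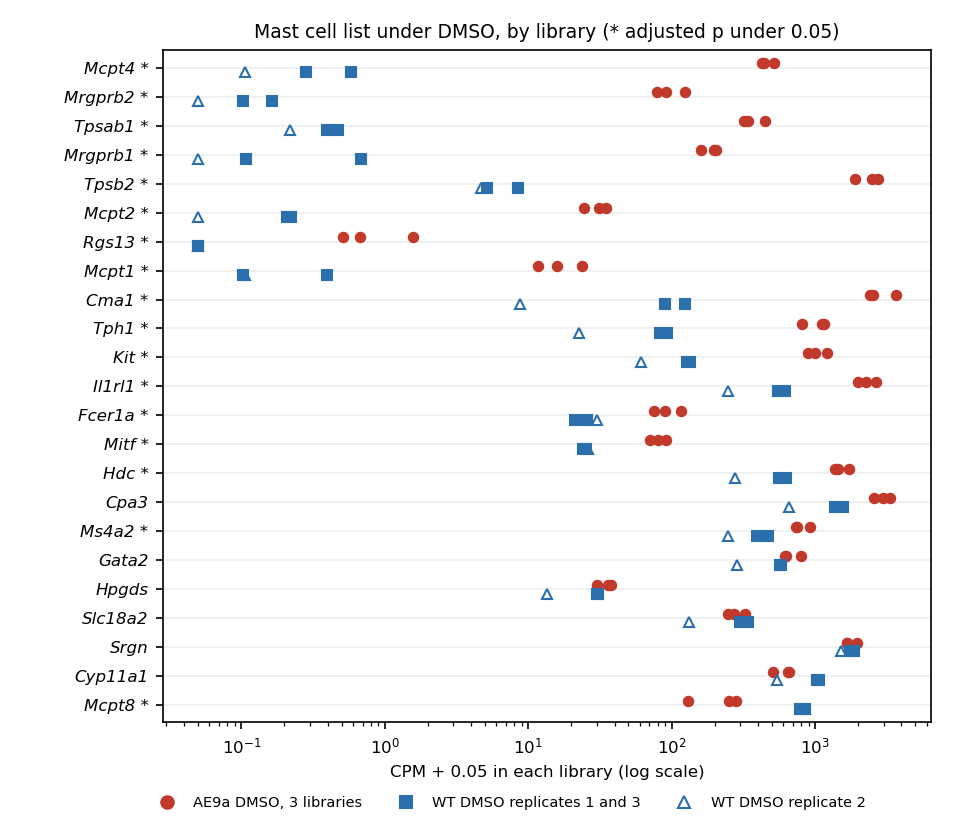
Level of each mast cell gene in each library, as CPM + 0.05 on a log scale, with AE9a libraries as red circles, WT replicates 1 and 3 as blue squares and WT replicate 2 as open triangles; stars mark called genes. The upper rows, from Mcpt4 to Mcpt1, lie under 10 CPM in every WT library, the rows from Cma1 to Hdc are shifted to the right in AE9a cells with WT expression present, and Mcpt8 at the bottom is shifted to the left.

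Called basophil and eosinophil genes were mostly lower, unlike the mast cell genes. Of 12 basophil genes, 2 were higher (Fcer1a and Ms4a2, which mast cells share) and 6 lower. By library, 6 lay wholly above and 6 wholly below WT, beside 21.8% and 26.0% of all genes. The summed basophil list was higher in AE9a cells, at 4771.7, 5973.9 and 5061 CPM against 3809.9, 2787.1 and 4198.3 CPM. Its most abundant genes, Cpa3, Ms4a2 and Gata2, are also in the mast cell list. Mcpt8 fell to 279, 250 and 130 CPM from 789, 847 and 855 CPM in WT cells (-1.90 ± 0.34, adjusted p = 0.00098), and Prss34, a second basophil protease gene, to 77.1, 55.2 and 33.7 CPM from 174, 529 and 210 CPM. Both were lower in every fit that left out a library. Of 12 eosinophil genes, 0 were higher and 4 lower: Alox15, Rnase12, and the granule protein genes Epx and Prg2. Epx had 117, 69.2 and 28.6 CPM against 135, 147 and 339 CPM, with its call lost in 3 of 6 such fits. The order of the libraries was uneven in both genotypes, AE9a replicate 3 being lowest and WT replicate 3 highest.

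Red cell genes rose as a second group, though the globin and the early genes did not move alike. Of 30 erythroid genes, 17 were higher and 2 lower, with a median of 1.54 (18 and 4 without WT replicate 2). The rises included the beta globin gene Hbb-bs and genes for membrane and blood group proteins and carbonic anhydrases. Car1 had 157, 193 and 163 CPM against 1.27, 0.169 and 1.06 CPM, and Car2 317, 396 and 313 CPM against 93.1, 58 and 95.7 CPM. Ank1, which encodes the ankyrin of the red cell skeleton, had 30.6, 37.2 and 37.3 CPM against 0.75, 0.562 and 1.21 CPM (5.38 ± 0.43, adjusted p = 1.8e-06). Trim10, a gene of red cell maturation, had 10.7, 13.6 and 13.9 CPM against 0, 0.0562 and 0.106 CPM. Rhag, Kel and Rhd, which give blood group antigens, rose by 2.13 to 4.09. Klf1, the erythroid transcription factor gene, was higher by 1.15 ± 0.30 (adjusted p = 0.011). Gata1 had 58.2, 68.3 and 65.1 CPM against 68.4, 22.8 and 65.6 CPM and Tal1, Epor and Tfrc were not called either.

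The adult beta globin genes parted from each other. Hbb-bs had 277, 390 and 344 CPM in AE9a and 1.67, 0.281 and 0.898 CPM in WT cells (8.49 ± 0.92). Hbb-bt had 7.92, 12.9 and 12.9 CPM against 74.5, 15.7 and 73.2 CPM (-2.25 ± 0.72, adjusted p = 0.033). The call of Hbb-bt held in 1 of 6 fits that left out a library. These genes are near-identical and differ between mouse strains, so how fragments were shared between them is uncertain and was not tested. Their sum was 285, 403 and 357 CPM in AE9a and 76.2, 16 and 74.1 CPM in WT cells. The alpha globin genes Hba-a1 and Hba-a2 summed to lower levels, 29.4, 33.2 and 31.1 CPM in AE9a and 13.2, 3.04 and 18.8 CPM in WT cells. Of 23 heme synthesis and iron genes, 6 were higher and 1, Hmox1, lower. Cpox and Fech, enzymes of the last steps of heme synthesis, rose by 0.93 ± 0.10 and 0.73 ± 0.09 and Blvrb by 1.5 ± 0.31, while Alas2, the first enzyme of the erythroid pathway, stood at 0.767, 1.21 and 1.32 CPM against 0.404, 0.618 and 1.06 CPM and was not called.

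Platelet and stem cell genes lay mostly lower, and here WT replicate 2 decided the counts. Of 22 megakaryocyte and platelet genes, 0 were higher and 4 lower with it, and 0 and 20 without it; the medians were -2.50 and -2.97. Pf4, a platelet chemokine gene, had 36.2, 25 and 15.8 CPM in AE9a cells and 348, 21.9 and 282 CPM in WT cells. Itga2b, the CD41 gene, had 152, 159 and 127 CPM against 1002.2, 147 and 944 CPM. In both genes WT replicates 1 and 3 lay far above and WT replicate 2 within the AE9a range. Nfe2, a transcription factor gene of platelet release, did not depend on that library: it had 116, 108 and 101 CPM against 220, 219 and 217 CPM (-0.99 ± 0.10, adjusted p = 7.7e-06).

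Of 31 stem cell genes, 3 were higher and 9 lower (3 and 21 without WT replicate 2), with a median of -0.92. Mllt3, a gene that sustains human stem cells in culture, had 6.95, 6.17 and 5.40 CPM against 19.9, 17.4 and 21.1 CPM (-1.64 ± 0.21). Procr, a surface marker of stem cells, had 3.32, 5.04 and 3.11 CPM against 16, 8.15 and 18.1 CPM, and Hlf 6.8, 5.59 and 4.38 CPM against 10.5, 15.1 and 11.3 CPM. Cd34 was lower by -0.53 ± 0.13 (adjusted p = 0.0068). Those 4 calls held without any single library. Meis1 was lower by -1.69 ± 0.57, a call kept in only 1 of 6 such fits. The 3 higher genes were Txnip, Lyl1 and Ly6a. Txnip, an inhibitor of thioredoxin and glucose uptake, had 582, 760 and 602 CPM against 232, 187 and 226 CPM, and Ly6a, the Sca-1 gene, which interferon also induces, 149, 120 and 66.8 CPM against 37.7, 16.1 and 30.1 CPM.

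Granulocyte genes of the WT group were split by WT replicate 2 in the opposite sense. Of 12 primary granule genes, 1 was higher and 2 lower, against 5 and 2 without that library. Over all genes the shares were 12.9% and 13.8%, or 24.8% and 25.9% without it. Mpo, the myeloperoxidase gene, had 1553.1, 1429.8 and 1463.2 CPM in AE9a cells and 1259.2, 4469.2 and 1410.5 CPM in WT cells, and was not called (adjusted p = 0.49). Elane showed -0.38 (adjusted p = 0.83) with WT replicate 2, in which it stood at 1397.3 CPM, and 1.22 (adjusted p = 8.3e-05) without it. Nkg7 had 31.1, 27.8 and 23.7 CPM against 86.1, 66.1 and 92.3 CPM (-1.55 ± 0.20) and Serpinb1a, an inhibitor of granule proteases, was higher by 0.93 ± 0.18. Of 28 genes of maturing neutrophils, 0 were higher and 6 lower, or 4 and 10 without WT replicate 2. The chemokine receptor gene Cxcr2 had 24.1, 21.1 and 16.3 CPM against 161, 108 and 169 CPM (-2.81 ± 0.34, adjusted p = 4e-05), and Csf3r, the G-CSF receptor gene, 93.6, 79.4 and 85 CPM against 164, 164 and 148 CPM. S100a8, S100a9, Ngp and Ltf stood higher in WT replicate 2 than in any other library and were not called.

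Called macrophage and antigen presentation genes were nearly all lower, but WT replicate 2 decided part of this. Of 27 monocyte and macrophage genes, 0 were higher and 8 lower, with a median of -0.35. Without WT replicate 2, 6 were higher and 9 lower with a median of 0.04, beside 24.8% and 25.9% of all genes. Mrc1, the mannose receptor gene, had 94.8, 90.5 and 94.8 CPM against 354, 290 and 274 CPM (-1.69 ± 0.30). Adgre1, a macrophage surface receptor gene, had 42.8, 43.2 and 49.7 CPM against 161, 89.4 and 166 CPM (-1.59 ± 0.21, adjusted p = 8.6e-05). Csf1r, Ccr2 and Irf8, also in the monocyte and macrophage list, were not called. Arg1 stood at 0.204, 0.221 and 0.153 CPM against 3.75, 39.3 and 2.85 CPM, so that its size rested on WT replicate 2. Of 21 dendritic cell and MHC class II genes, 1 (Bst2, an interferon-induced gene) was higher and 8 lower (0 and 12 without WT replicate 2). Cd74, the invariant chain gene, had 219, 247 and 300 CPM against 595, 298 and 414 CPM.

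Of the called lymphoid and stromal genes, most were lower. Of 19 B lineage genes, 0 were higher and 7 lower, with a median of -1.31, and 14 were lower without WT replicate 2. Ighm, the IgM heavy chain gene, had 66, 49.8 and 53 CPM against 188, 129 and 139 CPM, and Cd22 1.38, 1.51 and 1.22 CPM against 20.3, 3.77 and 20.7 CPM. Of 13 T and NK genes tested, 2 were higher and 2 lower (2 and 5 without WT replicate 2). Over all genes the shares were 12.9% and 13.8% (24.8% and 25.9% without WT replicate 2). The defining T cell genes Cd3e, Cd3d and Trac had at most 0.317 CPM in any library. Gata3, known from T helper and innate lymphoid cells, was higher in AE9a cells, with 22.2, 27.7 and 18.3 CPM against 1.73, 0.843 and 1.11 CPM (4.23 ± 0.46, adjusted p = 1.7e-05). Of 12 endothelial and stromal genes, 2 were higher and 5 lower. Pecam1, which blood progenitors also express, had 90.2, 77.2 and 75.6 CPM against 268, 242 and 283 CPM, and Ctsk 0.818, 1.65 and 1.27 CPM against 37, 6.58 and 28.2 CPM. Mmp14, a membrane metalloprotease gene, was higher by 3.13 ± 0.30 (144, 170 and 135 CPM against 21.7, 12.6 and 17.9 CPM). Cdh5, Cxcl12 and Dcn, which define endothelial and stromal cells, reached at most 1.02 CPM.

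**Figure D3:**
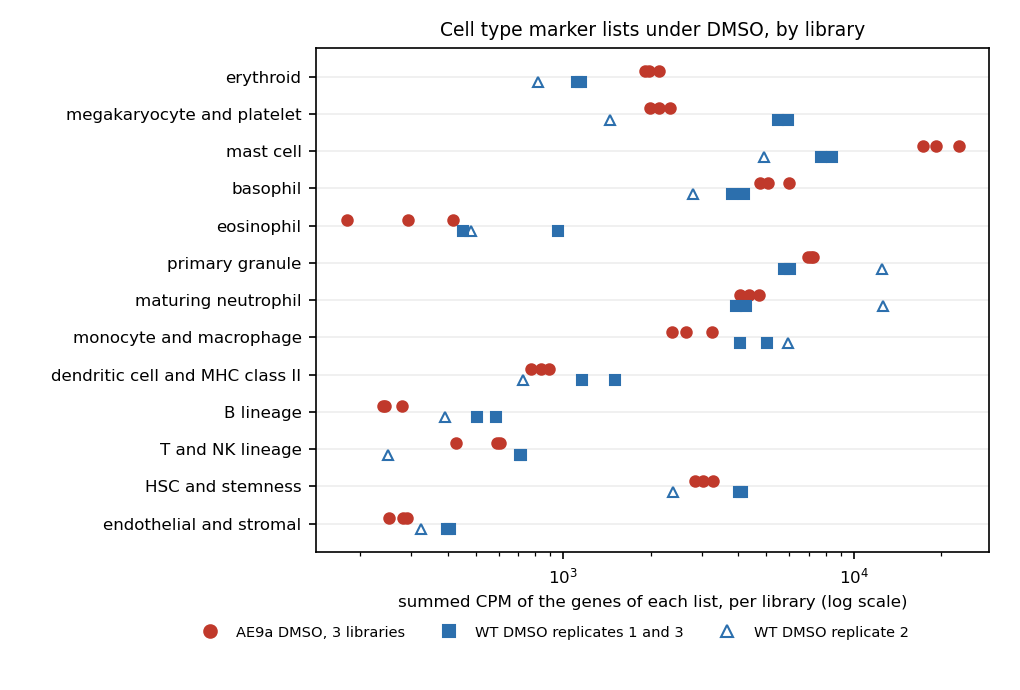
Summed CPM of the genes of each of 13 cell type lists in each library, on a log scale, with AE9a libraries as red circles, WT replicates 1 and 3 as blue squares and WT replicate 2 as open triangles. The mast cell, basophil and erythroid sums lie above every WT library. The B lineage, monocyte, eosinophil and endothelial sums lie below every WT library. WT replicate 2 parts from the other WT libraries in the megakaryocyte, primary granule and maturing neutrophil sums.

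How far these cell type lists account for the other differences was not tested; in some of the lists the summed levels did not overlap between the genotypes, and in others they did. The mast cell sum was 17307, 22978.5 and 19173 CPM in AE9a and 7699.1, 4903.5 and 8417.9 CPM in WT libraries, and the megakaryocyte sum 2137.5, 2327.1 and 1991 CPM against 5915.2, 1444.8 and 5499.6 CPM. Maturing neutrophil genes summed to 12627.5 CPM in WT replicate 2 and to between 3933.5 and 4727.2 CPM in the other 5 libraries.

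Interferon-stimulated genes were higher in AE9a cells. Type I interferons act through a receptor and JAK kinases to induce antiviral genes such as those of oligoadenylate synthases. Of 40 such genes tested, 25 were higher and 0 lower, with a median of 1.52, and the counts were 22 and 0 without WT replicate 2. Among the sensors and effectors, Oas2 had 174, 162 and 82.2 CPM against 16.9, 6.18 and 12.7 CPM (3.57 ± 0.67), and Ifi27l2a 131, 152 and 72.2 CPM against 10.5, 3.37 and 6.02 CPM (4.18 ± 0.58, adjusted p = 0.00012). Among the regulators, Irf7 had 131, 123 and 47.9 CPM against 15.9, 7.87 and 12.5 CPM. AE9a replicate 3 was the lowest of the AE9a libraries in 40 of the 40 genes, and in these 3 it stayed above every WT library. Ifitm3, Stat2 and Gbp2 were not called.

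The Ifi200 family, clustered genes whose products bind DNA, largely moved the same way, with 6 of 10 tested genes higher and 1 lower. Ifi203 had 140, 97.6 and 89.1 CPM against 45.9, 44.1 and 43.6 CPM, and Ifi206 11.7, 7.61 and 1.63 CPM against 0.519, 0.731 and 0.475 CPM. Members of this family resemble each other, and their counts may be shared. Aim2, the inflammasome member, was the exception at 43.7, 42.7 and 46.3 CPM against 74, 81.8 and 73.1 CPM (-0.77 ± 0.12, adjusted p = 0.00031). Of 18 MHC class I presentation genes, which interferon also induces, 1 (Psmb9, by 0.50 ± 0.17) was higher and 0 lower, a count that turned to 0 and 2 without WT replicate 2. B2m showed 0.32 (adjusted p = 0.39) and H2-K1 0.10 (adjusted p = 0.79).

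**Figure D4:**
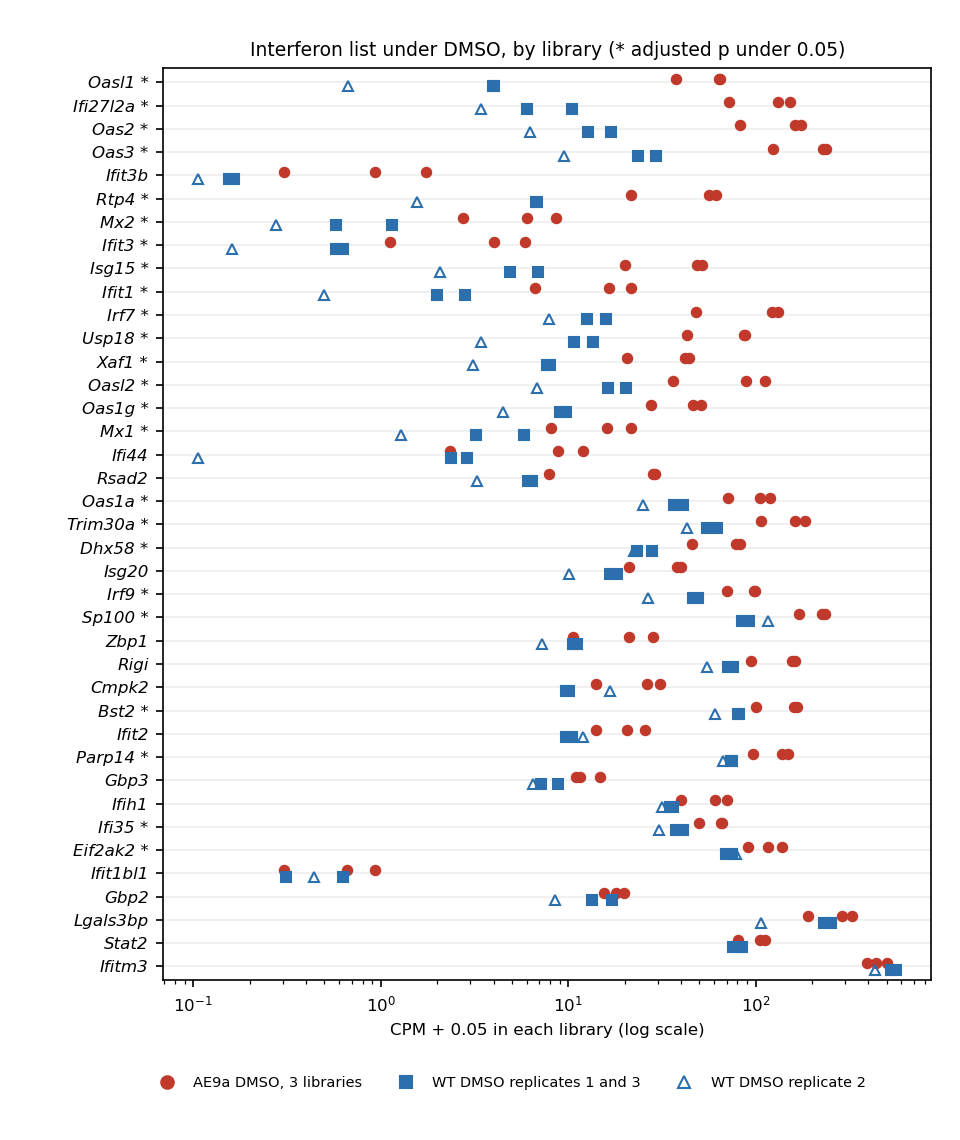
Levels of type I interferon response genes in each library, as CPM + 0.05 on a log scale, with AE9a libraries as red circles, WT replicates 1 and 3 as blue squares and WT replicate 2 as open triangles; stars mark called genes. In most rows AE9a libraries lie to the right of the WT libraries, and WT replicate 2 is in most rows the leftmost WT library.

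Cytokine and chemokine genes changed in both directions. Of 26 NF-kB and inflammatory genes, 5 were higher and 7 lower, beside 12.9% and 13.8% of all genes. Without WT replicate 2 the counts were 6 and 10, beside 24.8% and 25.9%. Lif, a cytokine gene outside that list, had 17.3, 13.1 and 8.81 CPM against 237, 57.5 and 227 CPM (-3.71 ± 0.68, adjusted p = 0.001). Il1b had 4.86, 4.19 and 5.09 CPM against 79.2, 8.77 and 75.3 CPM, a call kept in 3 of 6 fits that left out a library. Its antisense neighbour Il1bos overlaps it and was counted without regard to strand. Il6 had 12, 13.8 and 8.81 CPM against 61.2, 16 and 62.2 CPM. Ccl6 and Ccl9, chemokine genes of myeloid cells, had 283, 224 and 170 CPM against 1893.5, 939 and 1965.6 CPM, and 311, 280 and 300 CPM against 1242.3, 611 and 1222.8 CPM. Ccl2 was higher by 2.26 ± 0.53 (74.1, 114 and 86 CPM against 23, 14.7 and 20.4 CPM), and Tnf by 0.69 ± 0.12. Of 25 AP-1 and immediate early genes, 2 were higher and 7 lower, and without WT replicate 2 the counts were 3 and 15. Egr2 and Btg2 were lower by -2.02 ± 0.40 and -1.40 ± 0.38, and Fos and Jun were not called.

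Cytokine receptors changed in both directions. Of 30 tested, 7 were higher and 4 lower, beside 12.9% and 13.8% of all genes. Without WT replicate 2 the counts were 9 and 10, beside 24.8% and 25.9%. Il9r, the receptor gene of a mast cell growth factor, had 43.4, 64 and 51.5 CPM against 5.02, 2.92 and 6.07 CPM (3.52 ± 0.56). Il10ra had 121, 161 and 147 CPM against 52.7, 45.6 and 53.7 CPM, and Il2rg, the common gamma chain with which the IL-9 receptor pairs, 229, 261 and 237 CPM against 134, 115 and 138 CPM. Lower were Il18rap (-1.47 ± 0.15), Il7r (-1.30 ± 0.35), Il3ra (-0.99 ± 0.12) and Csf3r (-0.87 ± 0.24). Of 21 chemokine and attractant receptors, 2 were higher and 5 lower (4 and 8 without WT replicate 2); the higher ones were S1pr2 and Hrh2, a histamine receptor gene.

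Adhesion molecules, which hold cells to matrix and to each other, were more often lower than higher: of 32 tested, 5 were higher and 16 lower, with a median of -0.54, and 6 and 22 were without WT replicate 2. Cdh1, the E-cadherin gene, had 34.1, 27 and 23.5 CPM against 157, 127 and 185 CPM (-2.45 ± 0.29, adjusted p = 3.5e-05). Cdh17 had 2.1, 1.4 and 0.815 CPM against 20.4, 18 and 19 CPM, and the tetraspanin gene Cd63 254, 222 and 201 CPM against 801, 498 and 813 CPM. Integrin alpha genes parted. Itga9 had 94.8, 125 and 101 CPM against 0.693, 0.787 and 1.48 CPM (6.76 ± 0.67, adjusted p = 8.2e-06) and Itga4 345, 369 and 332 CPM against 192, 205 and 206 CPM, whereas Itga2 fell to 1.33, 0.662 and 0.764 CPM from 15.6, 4.78 and 18.7 CPM. Both proteins of the higher pair bind fibronectin-type matrix and the adhesion molecule VCAM1.

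Genes known from AML1-ETO leukemia changed in both directions. Their list was not split by the direction reported, so its counts do not tell whether genes moved as reported. Of 25 genes reported in the field to respond to AML1-ETO, 3 were higher and 7 lower (5 and 13 without WT replicate 2). Higher were Pou4f1, a neural transcription factor gene, with 3.58, 4.30 and 3.72 CPM against 0.346, 0.337 and 0.264 CPM (3.61 ± 0.31, adjusted p = 3.1e-06), Jup (1.27 ± 0.17) and Dusp6 (0.93 ± 0.21). Lower were, among others, Cebpa, the granulocyte factor gene, with 93.5, 87.8 and 85.8 CPM against 152, 240 and 151 CPM (-1.01 ± 0.28, adjusted p = 0.015), and Bcl2. The call of Cebpa held in 3 of 6 fits that left out a library. Of 35 hematopoietic transcription factor genes, 5 were higher and 6 lower, beside 12.9% and 13.8% of all genes. Without WT replicate 2 the counts were 12 and 10, beside 24.8% and 25.9%. Id2 had 296, 416 and 328 CPM against 116, 47.8 and 115 CPM, and Etv6 172, 156 and 164 CPM against 250, 247 and 258 CPM (-0.60 ± 0.05, adjusted p = 3e-06). Spi1 showed 0.03 (adjusted p = 0.95) and Myc 0.35 (adjusted p = 0.16).

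Homeobox genes separated by cluster. Of 13 HOXA and MEIS1 genes tested, 2 were higher and 1, Meis1, lower (2 and 5 without WT replicate 2), and no HOXA gene was called with all libraries. Hoxa9 had 3.88, 4.30 and 3.61 CPM against 3.35, 5.17 and 3.80 CPM. Meis2, a TALE homeobox gene related to Meis1, had 34.8, 46.4 and 33.5 CPM against 0.115, 0 and 0 CPM (9.80 ± 0.87, adjusted p = 4.4e-06). Of the HOXC cluster, Hoxc4 (chromosome 15, 102926531 to 102945281) had 0 fragments in all WT DMSO libraries and 7.87, 10.8 and 5.80 CPM in AE9a cells. The summed level of Hoxc4, Hoxc6 and Hoxc9 was 10.3, 13.1 and 7.64 CPM against 0.115, 0.112 and 0 CPM. These 3 genes and 2 unnamed loci formed a run of 5 neighbours called higher.

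Of the called genes of the complexes that the study addresses, more were higher than lower. Of 21 genes of the WDR5 and MLL complexes, which methylate histone H3 at active genes, 5 were higher and 2 lower, with a median of 0.08. Without WT replicate 2 the counts were 9 and 3. Over all genes the shares were 12.9% and 13.8%, or 24.8% and 25.9% without that library. Wdr5 (chromosome 2, 27405159 to 27426547) had 140, 135 and 139 CPM against 146, 164 and 147 CPM and was not called. Kmt2a, the MLL1 gene, had 147, 153 and 147 CPM against 186, 157 and 199 CPM (-0.26 ± 0.08, adjusted p = 0.032), a call kept in 1 of 6 fits that left out a library. Ash2l, a core subunit, had 116, 120 and 118 CPM against 73.1, 64.2 and 76.1 CPM (0.75 ± 0.08, adjusted p = 1e-05) and Setd1b rose by 0.48 ± 0.08. Of 29 Polycomb genes, 3 were higher and 2 lower (12 and 4 without WT replicate 2); Ezh2, the histone methyltransferase of the repressive complex, had 128, 133 and 121 CPM against 75, 80 and 80.7 CPM (0.72 ± 0.07, adjusted p = 7.6e-06).

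Of the genes that gate entry into the cell cycle, Cdkn2a changed most. It encodes p16INK4a and p19ARF, which restrain CDK4 and CDK6 and stabilise p53, and had 32.7, 45.8 and 53.8 CPM against 1.56, 0.112 and 1.21 CPM (5.53 ± 0.99, adjusted p = 0.00088). The counts do not part these products. Ccnd2, the cyclin D2 gene, had 718, 900 and 802 CPM against 335, 168 and 329 CPM (1.56 ± 0.29), and Ccnd1 rose by 1.45 ± 0.36. These were the 3 genes called of 18 G1 genes, of which 8 were higher and 4 lower without WT replicate 2. Over all genes the shares were 12.9% higher and 13.8% lower, or 24.8% and 25.9% without that library. Among 34 DNA replication and 28 mitosis genes, 0 were called by edgeR in either direction, and without WT replicate 2, 18 and 13 were higher and 1 and 0 lower.

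Called targets of p53 were lower while Trp53 itself was higher by 0.29 ± 0.08. Of 33 tested, 1 (Trp53) was higher and 10 lower, with a median of -0.51, and without WT replicate 2 the counts were 2 and 26. Perp had 14.9, 11.1 and 6.31 CPM against 58, 34.1 and 65.3 CPM (-2.26 ± 0.37), Ddit4 39, 46.4 and 31.4 CPM against 76.6, 77 and 70.3 CPM, and Gadd45a fell by 1.11 on the log2 scale. Cdkn1a, the p21 gene, showed -0.89 and was not called (adjusted p = 0.069). Several of the lower genes promote cell death. Of 18 BCL2 family genes, 1 was higher and 6 lower (3 and 9 without WT replicate 2). Bcl2, which protects cells, had 50, 51.3 and 44.8 CPM against 162, 69.9 and 163 CPM (-1.41 ± 0.36). The death-promoting Bcl2l11 had 38, 36.8 and 44 CPM against 83.2, 77.8 and 74.8 CPM (-0.97 ± 0.15), and Pmaip1 52.5, 46.9 and 54 CPM against 80.6, 82.7 and 85.7 CPM. Bik, also death-promoting, was the higher gene (3.89 ± 0.75).

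Lysosomal genes were lower in AE9a cells. Of 31 tested, 2 were higher and 14 lower, with a median of -0.34, and 3 and 20 without WT replicate 2. Of the 14, Atp6v0d2, Ctss, Lgmn and Psap passed 2-fold. Ctss, a protease gene of antigen-presenting cells, had 140, 149 and 129 CPM against 450, 290 and 368 CPM. Psap, which makes activators of lipid breakdown, had 1119.7, 1054.3 and 1184 CPM against 2300.6, 2857 and 1875.3 CPM (-1.05 ± 0.27).

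Single genes of amino acid supply differed in either direction. Asns, which makes asparagine, had 129, 125 and 118 CPM against 42.9, 63.1 and 50.1 CPM (1.27 ± 0.11, adjusted p = 4.6e-06), and Slc7a5, a leucine transporter gene, rose by 0.74 ± 0.13. Slc7a11, the cystine transporter gene, had 38.4, 33.6 and 33.9 CPM against 125, 103 and 132 CPM (-1.75 ± 0.15, adjusted p = 3.3e-06). In the list of 34 stress and amino acid genes that holds them, 2 were higher and 5 lower (8 and 10 without WT replicate 2), against 12.9% and 13.8% of all genes. Of 27 cholesterol and fatty acid genes, 1 (Srebf2, the pathway's transcription factor, by 0.33 ± 0.05) was higher and 6, Scd1 among them, lower (3 and 14 without WT replicate 2). Of 15 genes of the mitochondrial genome, 6 were lower, with a median of -0.42 (12 without WT replicate 2); 2 of 33 nuclear oxidative phosphorylation genes were higher and 2 lower. Of 30 ribosome biogenesis genes, 5 were higher and 0 lower, and without WT replicate 2, 22 and 1. Of 23 glycolysis genes, 2 were higher, Pfkm by 0.80 ± 0.11 and Hk1 by 0.42 ± 0.13, and 0 lower (8 and 3 without WT replicate 2).

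**Figure D5:**
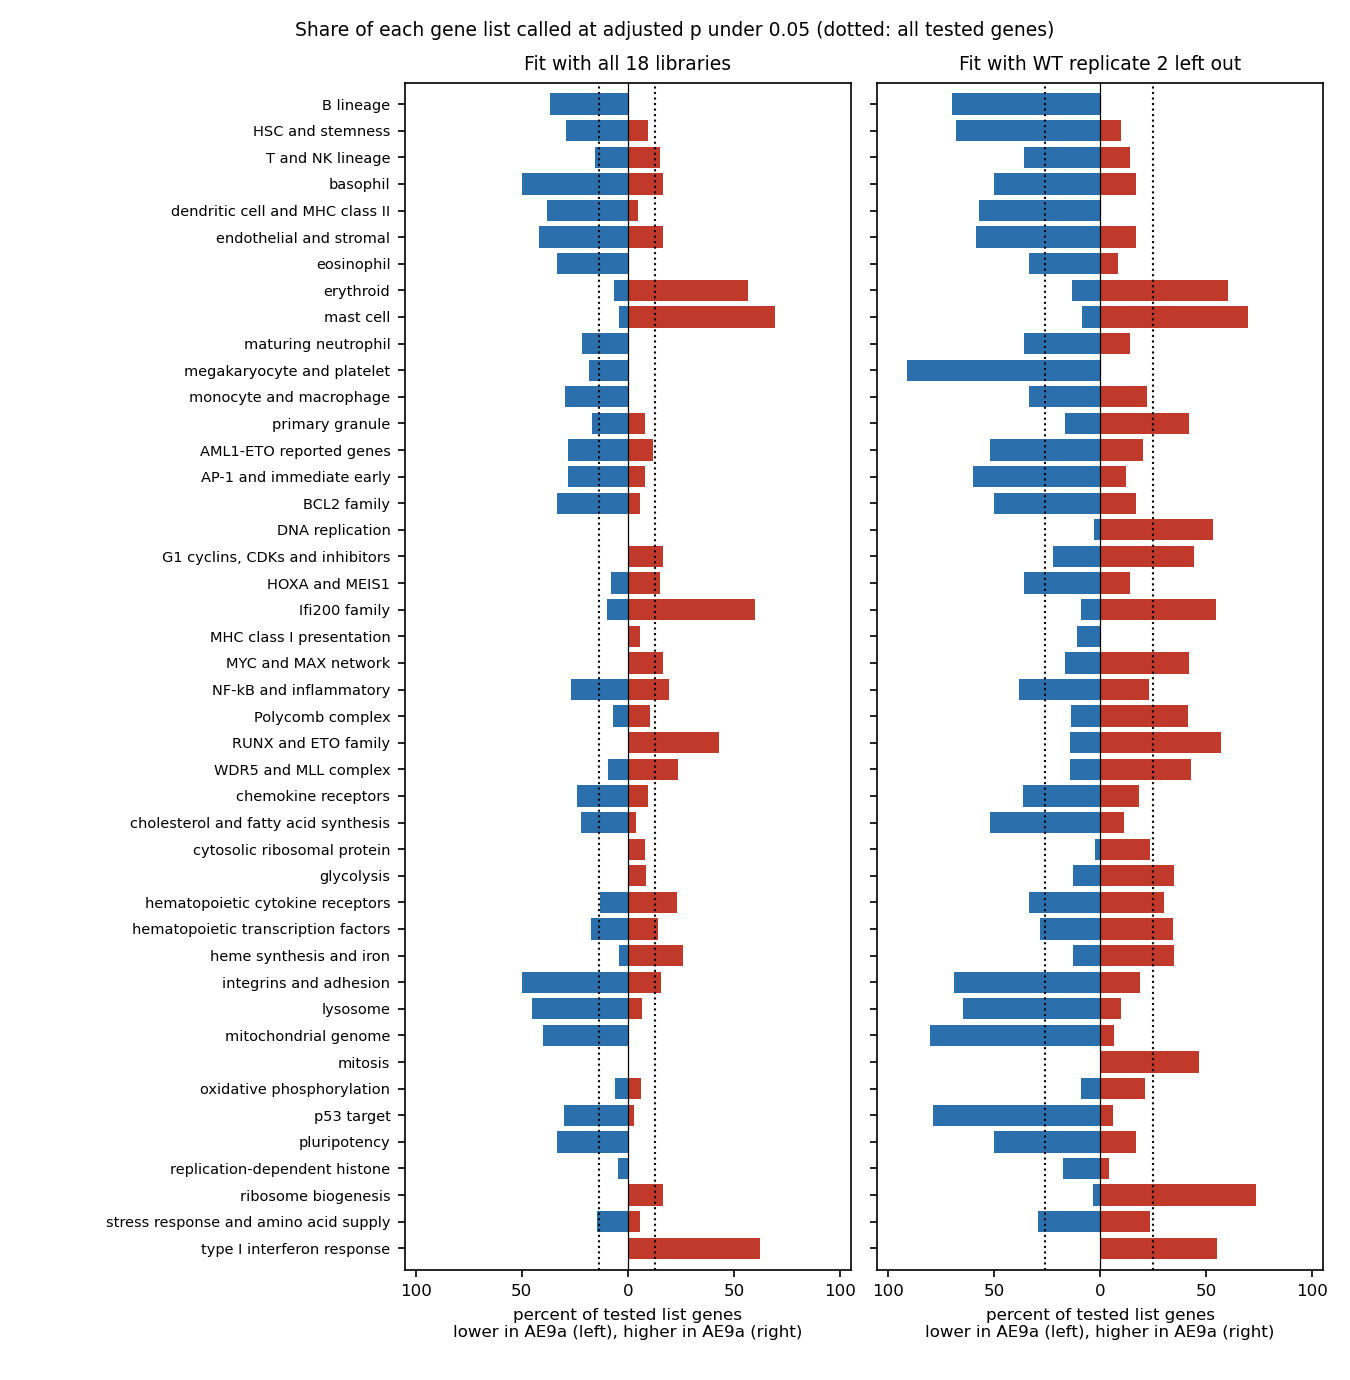
Percent of the tested genes of each list called higher (red, right) or lower (blue, left) in AE9a cells under DMSO, in the fit of all 18 libraries and in the fit without WT replicate 2; dotted lines mark the shares of all tested genes (12.9% and 13.8%, then 24.8% and 25.9%). The mast cell, erythroid and interferon lists have similar shares in both fits, whereas the megakaryocyte, p53, ribosome biogenesis, DNA replication and mitosis shares grow without WT replicate 2.

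Several genes had fragments in AE9a but not in WT DMSO libraries. Against a floor of 3 fragments over the 3 WT DMSO libraries, Kcnc4, a potassium channel gene, was at least 421-fold higher (444, 781 and 328 fragments against 0, 0 and 0). Redrum, an erythroid long noncoding RNA gene, was at least 260-fold higher, Reln at least 229-fold, Wt1, a transcription factor gene overexpressed in many leukemias, at least 184-fold, Nudt11 at least 178-fold and Hoxc4 at least 152-fold. Of genes with 0 fragments in AE9a libraries, Capn11 was at least 38-fold lower, with 1, 37 and 55 WT fragments, and the next by fragments were immunoglobulin V genes, led by Ighv1-9 with 3, 44 and 4 fragments and Ighv1-5 with 2, 2 and 46. Those fragments came mostly from 1 library, replicate 2 for the former and replicate 3 for the latter.

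Called genes also lay side by side. There were 73 runs of at least 4 neighbouring tested genes called in the same direction, 36 higher and 37 lower. The longest, of 8 genes on chromosome 11 (83463743 to 83597095), held the lower chemokine genes Ccl9, Ccl6, Ccl3 and Ccl4. Their summed level was 645, 538 and 515 CPM against 3361.4, 1618.2 and 3393.6 CPM. A run of 7 higher genes on chromosome 17 (37148016 to 37308847) held Trim26, Trim15 and Trim10, and a run of 5 on that chromosome (25562219 to 25655308) the tryptase genes with Cacna1h. On chromosome 2 (6544505 to 9920393) Gata3 and its antisense and upstream transcripts, which overlap or adjoin it, made most of a run of 5. Neighbours that overlap can share fragments because counting ignored strand.

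Whether the genotypes differed likewise under the compounds was asked by testing the difference of differences. Against RE, edgeR called 0 genes with a more positive difference under DMSO (0.0%) and 0 with a more negative one (0.0%), with 676 at an unadjusted p under 0.05 and 34 called by DESeq2. Without WT replicate 2 of all treatments, 201 genes were called. The nearest to a call was Ccny, at -0.86 (adjusted p = 0.062). Against C16, the genotype difference was more positive under DMSO for 1310 genes (8.29%) and more negative for 755 (4.78%). Kit was among the former, its difference being 2.05 ± 0.44 more positive under DMSO (adjusted p = 0.0083 by edgeR). So were Gata1 (3.36 ± 0.95), Gata2 (1.91 ± 0.50), Hdc (3.23 ± 0.58) and Rhag (6.23 ± 0.81). These values compare signed differences, and a more positive difference need not be a wider one. For Gata1, Gata2, Hdc and Rhag they exceeded the DMSO differences themselves (0.31, 0.53, 1.66 and 3.55). The estimated difference under C16 was thus negative for these genes. Under DMSO, Gata1 and Gata2 were not called. The mast cell proteases Mcpt4 and Tpsab1, Runx1t1 and Mpo were not called for this. Among the C16 libraries, WT replicate 2 lay 0.91 and 0.96 from the other WT libraries, which lay 0.24 apart. It lay 0.51, 0.53 and 0.52 from AE9a C16 replicates 1, 2 and 3, nearer than to its own group. AE9a replicate 3 lay 0.46 and 0.49 from the other AE9a libraries, which lay 0.21 apart. Without WT replicate 2 of all treatments, 8038 genes were called for this difference, and the part of AE9a replicate 3 in it was not tested. The fit ignored that the WT libraries numbered 2 resembled each other across treatments: WT DMSO replicate 2 lay 0.4 from WT RE replicate 2 and 0.52 from WT C16 replicate 2. With genotype and replicate as a random effect (limma-voom, estimated correlation 0.389), 25 genes were called against RE and 5271 against C16.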

How the data were processed

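RNA was sequenced from 18 libraries (2 genotypes, 3 treatments, 3 libraries per group), and the 6 DMSO libraries are compared here. The authors deposited raw counts of fragments per gene in a table per genotype, made with featureCounts 1.6.2 on GRCm39 without a strand option, per the file headers. FastQC 0.11.9, fastp 0.23.2, HISAT2 2.1.0 and featureCounts 2.0.3 are named in the submitters' processing notes. The tables were joined on gene name, giving 41079 genes, of which 28108 had a fragment. CPM was computed as counts over the library's total. All 18 libraries were fitted in 6 groups with edgeR 4.0.16 (R 4.3.3; filterByExpr, TMM scaling, quasi-likelihood F test), with Benjamini-Hochberg adjustment over all tested genes and a threshold of 0.05; standard errors are the log2 fold change over the square root of F. The fit was tested on simulated data, where it called 44 of 100 genes changed 2-fold and 100 of 100 changed 4-fold. Of 15136 unchanged genes it called 13. The simulation gave every gene the same spread and held no library set apart like WT replicate 2. A gene not called may thus still differ. P-values measure only the spread between these libraries, which may be technical. Alternatives used RLE or upper-quartile scaling, other filters, DESeq2 1.42.0, limma-voom (limma 3.58.1), fewer libraries and a replicate block. Replicate numbers did not pair the DMSO libraries across genotypes: deviations of same-numbered libraries correlated at -0.04, -0.15 and -0.09. No 2 libraries held identical counts.

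Genes were named by rule: the 15 largest called rises and falls of at least 5 CPM without overlap, the 10 largest CPM differences each way, up to 6 called and the 3 most abundant genes per list, 6 genes per direction at 0 in a genotype, and genes of the study. Alas2, Atp6v0d2, Cacna1h, Ccl4, Cd3d, Cd3e, Cdh5, Csf1r, Cxcl12, Dcn, Epor, Fcer1a, Fos, Gbp2, Hbb-bt, Hlf, Hoxc6, Hoxc9, Hpgds, Irf8, Jun, Kel, Klf1, Lgmn, Ltf, Ly6a, Mcpt1, Mcpt2, Pf4, Rhd, Slc18a2, Stat2, Trac, Trim15 and Trim26 fall outside it and were chosen after their values were seen. The comparison and the gene lists were chosen with earlier results of these data known. Promoters came from RefSeq on GRCm38.p6, and no positions were converted between builds. Some members of the lists are counted in them but not reported here by name.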

Additional observations from a re-analysis of the deposited data

Results flagged for a closer look

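The genotype difference under DMSO differed from that under C16, by edgeR's test of the interaction, in the positive direction for 1310 genes and in the negative direction for 755. The genes with the smallest p in the positive direction were Spire1 (2.44 ± 0.16 more positive under DMSO on the log2 scale), Dmwd (3.35 ± 0.22) and Garem1 (4.17 ± 0.30). In the negative direction they were Ttc21b (-1.14 ± 0.12), Fgl2 (-2.03 ± 0.21) and Cisd2 (-0.64 ± 0.08). Of the genes of the study, Runx1 (1.27, adjusted p = 0.0054), Kit (2.05, adjusted p = 0.0083), Gata2 (1.91, adjusted p = 0.023) and Gata1 (3.36, adjusted p = 0.033) were called in the positive direction. Cd34 (-0.64, adjusted p = 0.033) and Cebpa (-1.31, adjusted p = 0.042) were called in the negative direction, all by edgeR with 3 libraries per group. The DMSO differences of Gata1 and Gata2 were themselves not called. WT C16 replicate 2, which is in this test, lay 0.51 to 0.53 from the AE9a C16 libraries. It lay 0.91 and 0.96 from the other WT C16 libraries.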

How the results depend on the processing

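The 4225 called genes kept their sign in every fit that tested them, and 145 of 251 called genes named by rule stayed called in each of the 18 other fits that tested them. WT replicate 2 moved the counts most. Leaving it out of all 3 treatments gave 8172 calls in all (4003 genes higher and 4169 lower), 559 calls within lists, 274 runs of neighbours, and 8038 and 201 interaction calls against C16 and RE; it also turned 5 uncalled genes, Elane to 1.22, Eno1 to 0.4, Mki67 to 0.21, Ngp to 0.73 and Pkm to 0.18, with adjusted p of 8.3e-05, 6.7e-06, 0.03, 0.0087 and 0.0041. A replicate block over the 6 DMSO libraries gave 2367 calls in all, 1270 higher and 1097 lower, with 23 runs, and over 18 libraries 2188 higher, 2419 lower and 3 RE interaction calls. The fit without a filter gave 27 runs. RE interaction calls were 34 by DESeq2, 1 over 12 libraries and 25 with a random effect, which gave 5271 against C16. Leaving out 1 DMSO library at a time gave 1532 to 1826 genes higher, 1336 to 2123 lower, 195 to 290 list calls, 21 to 64 runs, 1084 to 1699 C16 and 0 to 1 RE interaction calls. The estimated spread within groups was 0.243 in the main fit and 0.091 without WT replicate 2 of all treatments, so calls in these 2 fits rest on unlike spreads. The cause of these shifts was not tested. The floor of 3 fragments over the 3 libraries of a group was chosen for the fold bounds and is not a measured limit of detection.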

Other observations

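A few groups outside the comparisons above showed small differences. Of 12 genes of the MYC and MAX network, 2 were higher in AE9a cells and 0 lower, with 5 and 2 without WT replicate 2. Max, the partner of MYC, had 117, 117 and 114 CPM against 93.7, 97.6 and 95.8 CPM in WT cells, and Mxd4, which competes with MYC for MAX, had 103, 140 and 116 CPM against 73.9, 53.3 and 71.2 CPM (0.88 ± 0.17, adjusted p = 0.0015 by edgeR). Runx3, a relative of Runx1, had 82.6, 84.6 and 76.4 CPM against 66.3, 62.9 and 64.7 CPM. Of 38 cytosolic ribosomal protein genes, 3 were higher and 0 lower, with a median log2 difference of 0.04. Of 6 pluripotency genes tested, 2 were lower; Klf5 had 3.37, 2.28 and 1.93 CPM against 6.29, 7.19 and 4.7 CPM. Osbpl8, a lipid transfer protein gene, was among the larger rises by CPM, with 1303, 1551.6 and 1379 CPM against 619, 476 and 639 CPM (1.31 ± 0.12, adjusted p = 5.7e-06 by edgeR).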
